A study of Mus musculus with 7 samples.

Results

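The genes described here encode the blood clotting cascade and its brakes, the receptors that sense thrombin, and the early steps of complement, as read in mouse liver RNA. They were taken from the array by gene symbol, and where a gene had more than 1 probe set the brightest by its mean over the 7 arrays was used. Of 40 listed genes 36 were measured: 21 of 22 coagulation factors, anticoagulants and their receptors, 3 of 4 protease-activated receptors, and 12 of 14 genes of complement activation. C3, Cfd and F2rl1 have no probe set under that symbol in the annotation used here, the probe set of Klkb1 also carries Cyp4v3, and these 4 genes were not analysed here. The array named 19938 genes by a probe set with 1 symbol.
Livers came from 4 control and 3 Trpm6-deficient male littermates on a C57BL/6 background, with 1 array per mouse. Control mice (Trpm6 fl/+) carried 1 floxed and 1 wildtype allele of Trpm6, an epithelial channel kinase of Mg2+ transport. Trpm6-deficient mice (Trpm6 Δ17/Δ17;Sox2-Cre) lacked an exon on both alleles, whose loss shifts the reading frame. The Sox2 promoter drives Cre in the epiblast, so the deletion is in every tissue of the body and not in the liver alone. Control 1 and 2 and Trpm6-deficient 2 were 12 weeks old, and the other 4 mice were 13 weeks old. Values are log2 expression values, so a change of 1 is a doubling, and values of different genes cannot be ranked against each other because probe sets differ in brightness. The array medians lay between 6.43 and 6.48. The probe set of Trpm6 itself read 5.51 ± 0.01 (SD, n = 4) in the controls and 5.46 ± 0.08 (SD, n = 3) without Trpm6, below every array median, and whether it reads the deleted exon was not examined. Hepatocyte markers, among them albumin, lay between 13.50 and 14.38 on average.

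Hepatocytes secrete most clotting and complement proteins of plasma as inactive precursors. Clotting runs as a chain of serine proteases that ends in thrombin, which cuts fibrinogen into fibrin and also signals to cells by cutting receptors on their surface. Complement marks targets by the classical, lectin and alternative pathways, which meet at C3, and host inhibitors hold it back. Other cells of the liver add to the pool: sinusoidal endothelium is the main source of factor VIII, and cells of the myeloid lineage make properdin.

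F2r, which encodes the thrombin receptor PAR1, fell in Trpm6-deficient livers, and it was the 1 gene of the 36 that limma called at its threshold (adjusted p up to 0.1). Over the whole array 0.129% of probe sets were called, 0.0759% as higher and 0.0534% as lower. At the nominal limit, an unadjusted p up to 0.05, 3 genes were higher (Kng2, F7 and Kng1) and 5 were lower (F2r, Susd4, F11, Mbl1 and Pros1). These 8 genes are 22.2% of those measured, where 6.87% of all probe sets met that limit, 3.85% as higher and 3.03% as lower. The genes were listed with earlier results of these data known, so these shares do not test the set. All probe sets also include 12146 with no gene symbol. In the same 8 genes the groups did not overlap, as in 5.33% of all probe sets (2.94% higher, 2.38% lower). Over the 36 genes the median log2 change was 0.01, against 0.00 over all probe sets, with 19 genes above 0 and 17 below.

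**Figure D1:**
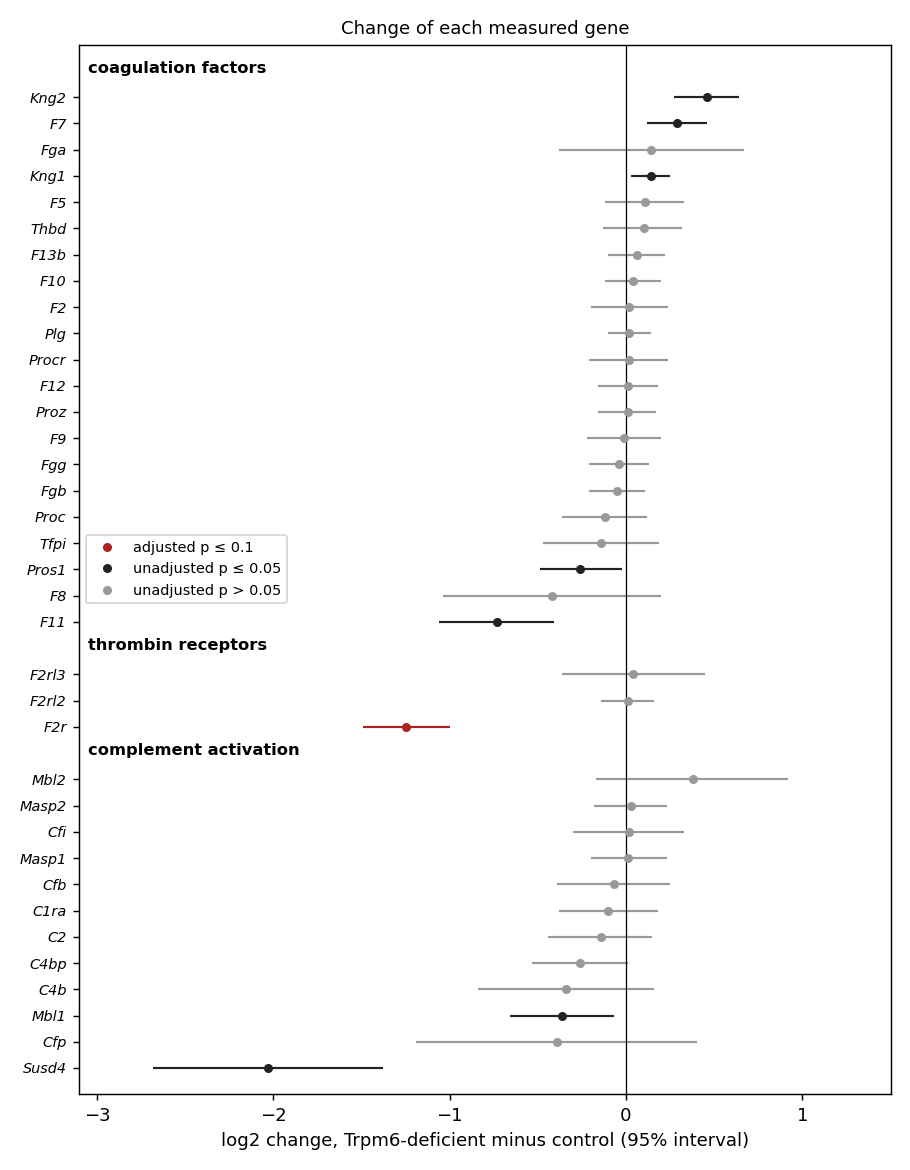
Log2 change (Trpm6-deficient minus control) of the 36 measured genes with its 95% interval from limma, by role. Red marks the called gene, black those at the nominal limit and grey the rest. F2r at -1.25 and Susd4 at -2.03 stand apart from the other genes, which lie between -0.73 and 0.46.

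The following stretches of sequence are shown because they belong to the genes with the smallest p-values, of which F2r and Susd4 were lower by more than 1 log2 unit. Each is the RefSeq promoter (GRCm38.p6) from 250 bases before to 50 bases after a gene start, read 5′ to 3′ on the gene's strand, with CpG dinucleotides in capitals. They lie at chr13:95618417-95618716 (minus strand) for F2r, chr1:182763966-182764265 (plus strand) for the first of 2 starts of Susd4, chr8:45261982-45262281 (minus strand) for F11 and chr16:23029052-23029351 (minus strand) for Kng2.
F2r: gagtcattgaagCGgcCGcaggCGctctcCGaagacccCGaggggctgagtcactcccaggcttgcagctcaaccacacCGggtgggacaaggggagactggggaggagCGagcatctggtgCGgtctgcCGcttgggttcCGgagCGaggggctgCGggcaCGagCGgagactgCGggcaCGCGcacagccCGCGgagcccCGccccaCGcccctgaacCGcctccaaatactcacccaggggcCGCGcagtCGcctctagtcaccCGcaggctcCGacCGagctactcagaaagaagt
Susd4: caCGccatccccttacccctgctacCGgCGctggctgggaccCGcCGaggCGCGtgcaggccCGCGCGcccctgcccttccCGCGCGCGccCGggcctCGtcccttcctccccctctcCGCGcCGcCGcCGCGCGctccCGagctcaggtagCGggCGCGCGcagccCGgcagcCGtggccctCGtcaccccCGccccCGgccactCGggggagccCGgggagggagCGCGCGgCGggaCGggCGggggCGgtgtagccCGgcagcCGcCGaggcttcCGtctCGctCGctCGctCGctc
F11: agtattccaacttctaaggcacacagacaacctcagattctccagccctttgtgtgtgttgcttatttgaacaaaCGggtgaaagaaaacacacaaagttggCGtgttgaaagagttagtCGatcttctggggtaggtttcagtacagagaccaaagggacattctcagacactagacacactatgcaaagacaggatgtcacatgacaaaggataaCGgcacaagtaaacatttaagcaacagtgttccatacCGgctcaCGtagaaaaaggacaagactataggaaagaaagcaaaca
Kng2: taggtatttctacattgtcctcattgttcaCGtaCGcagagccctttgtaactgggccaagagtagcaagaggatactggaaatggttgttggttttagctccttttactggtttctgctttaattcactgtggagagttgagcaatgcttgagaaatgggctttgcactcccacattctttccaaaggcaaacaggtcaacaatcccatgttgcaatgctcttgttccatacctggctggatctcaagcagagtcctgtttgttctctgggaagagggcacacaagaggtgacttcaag
The printed promoter of Susd4 holds 50 CpG dinucleotides and that of F2r 28, at a GC content of 81.3% and 68.7%. The promoter at the other start of Susd4 holds 12, at a GC content of 63.7%. F11 and Kng2, whose products are secreted by hepatocytes, have 6 and 2 CpG dinucleotides and a GC content of 42.3% and 45.3%. Of 32851 promoters of the same length in the table, 0.855% hold at least as many CpG dinucleotides as the printed promoter of Susd4 and 14.2% as many as F2r, and the median promoter holds 7. The median over the 29 promoters of the 27 measured genes that the table holds is 5. C2, C4b, Cfb, Cfi, Kng1, Masp1, Plg, Proc and Thbd have no entry.
In all, 5 motifs were searched on both strands of these promoters. TTGCNNAA, a loose form of the site of the C/EBP factors, occurs in F11, Kng2, C1ra, F2rl2, F9, Fga, Fgb and Procr (8 genes), and in 10.8% of all promoters. TTCNNNGAA, the core of the STAT5 site, occurs in C1ra, F9, Fga, Fgb, Masp2 and Pros1 (6 genes), and in 8.30% of all promoters. TATAAA occurs in Tfpi alone (13.6% of all promoters), and CAAAGTCCA of HNF4 and the HNF1 site occur in none of the 29 (0.475% and 0.0609% of all promoters). Both promoters of Susd4 and that of F2r hold none of the 5 motifs. Matches were not checked for overlap with each other, and a match in this window is a description of the sequence only.

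F2r was read at 9.57, 9.67, 9.59 and 9.46 in the 4 control livers and at 8.32, 8.53 and 8.13 in the 3 Trpm6-deficient livers. Every Trpm6-deficient liver lay below every control liver, and the gap between the groups was wider than the spread inside either. The log2 change was -1.25 (standard error 0.10, adjusted p = 0.0404 from limma), which is 2.37-fold lower. In mice of 12 weeks the difference was -1.09 (2 control and 1 Trpm6-deficient) and in mice of 13 weeks -1.30 (2 and 2).
F2rl2, which encodes PAR3, a thrombin receptor that helps PAR4 on mouse platelets, was read between 5.43 and 5.59 in control and between 5.44 and 5.62 in Trpm6-deficient livers. Its log2 change was 0.01 (95% interval -0.14 to 0.16). F2rl3, which encodes PAR4, was read between 5.63 and 6.22 and between 5.82 and 6.28, with a log2 change of 0.04 (95% interval -0.36 to 0.45). Both genes lay below the median of every array in every liver. F2r and F2rl2 lie close together in the genome, with 1 gene between them, and F2rl1 lies next to F2r. Whether the changes of F2r and F2rl2 differ from each other was not tested.
The call of F2r was lost when any 1 control liver was left out, at adjusted p = 0.190, 0.191, 0.230 and 0.145 from limma without control 1, 2, 3 and 4, while its log2 change stayed between -1.21 and -1.28. In those fits the calls over all probe sets were 7 to 10, against 46 with all 7 livers.
Of 17 measured genes that carry signals from these receptors (G proteins, phospholipases and arrestins among them), none passed limma's test. Only Gna12, a G alpha subunit gene, met the nominal limit (log2 change -0.35, standard error 0.14, adjusted p = 0.693). The share at that limit was 5.88%, against 6.87% of all probe sets, and the 17 changes had a median of -0.02.
PAR1 is found on stellate and endothelial cells of the liver, and a lower value in whole tissue can come from fewer such cells or from less RNA per cell, which cannot be told apart here. Of 10 stellate cell markers none passed limma's test, 3 were higher at the nominal limit (Reln, Des and Ecm1, at 0.30, 0.28 and 0.42) and none lower. Their mean level was 8.79 to 9.06 in control and 9.03 to 9.16 in Trpm6-deficient livers. Of 10 sinusoidal endothelial markers none passed and none met the nominal limit, though all 10 changes were below 0 (median -0.18). Their mean level was 8.98 to 10.03 in control (9.73 to 10.03 without control 1) and 9.21 to 9.73 in Trpm6-deficient livers. Control 1 had the lowest mean of stellate, endothelial and Kupffer cell markers, at 8.79, 8.98 and 8.33. F2r was read there at 9.57, and 1 liver cannot settle the part of these cells. The part of these cells in the value of F2r was not tested.

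**Figure D2:**
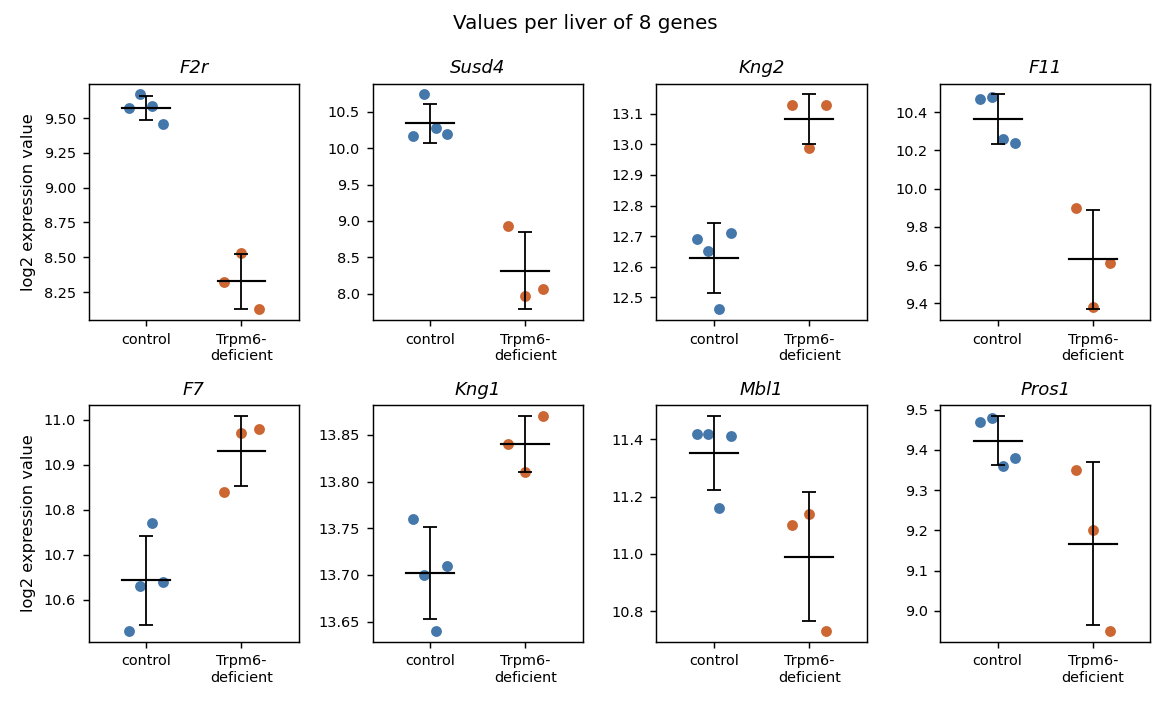
Log2 expression values of the 8 genes at the nominal limit, ordered by p. Each point is 1 liver (4 control, 3 Trpm6-deficient), lines are group means and bars their SD. Vertical scales differ between panels and do not start at 0. The groups are apart in each panel, by the widest margin for Susd4 and F2r and by 0.01 between the nearest livers for Pros1.

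Susd4 had the largest change among the complement genes. It encodes a membrane protein of sushi domains, the folds shared by complement regulators, and is known to restrain complement activation. It was read at 10.17, 10.74, 10.28 and 10.19 in control and at 8.93, 7.96 and 8.06 in Trpm6-deficient livers. The groups were apart by more than 1 log2 unit at their nearest, and Trpm6-deficient 1 was closest to the controls. The log2 change was -2.03 (standard error 0.27, adjusted p = 0.119 from limma), 4.08-fold lower, which did not pass the threshold of 0.1. Without Trpm6-deficient 1 it passed (log2 change -2.33, adjusted p = 0.0431). In mice of 12 weeks the difference was -2.50 and in those of 13 weeks -1.74. Susd4 also passed over the probe sets with a mean of 5 or more (adjusted p = 0.0809) and over those with 1 gene symbol (adjusted p = 0.0708).
C4bp and Cfi encode inhibitors found in plasma. C4bp, the gene of the binding protein that disarms C4b, was read between 12.45 and 12.69 in control and at 12.49, 12.17 and 12.10 in Trpm6-deficient livers. Its groups overlapped through Trpm6-deficient 1, and the log2 change was -0.26 (95% interval -0.53 to 0.01). Cfi, which encodes the protease factor I that cuts C3b and C4b, had a log2 change of 0.02 (95% interval -0.30 to 0.33).
The lectin pathway begins with mannose-binding lectins, of which the mouse has a pair, Mbl1 and Mbl2. Mbl1 was read at 11.42, 11.42, 11.16 and 11.41 in control and at 11.10, 11.14 and 10.73 in Trpm6-deficient livers. Control 3 lay next to the Trpm6-deficient livers, and the log2 change was -0.36 (standard error 0.12, adjusted p = 0.647 from limma). Mbl1 met the nominal limit in 3 of 7 fits with 1 liver left out. Mbl2 was read at 10.70, 10.49, 10.33 and 10.20 in control and at 11.20, 10.91 and 10.31 in Trpm6-deficient livers. Trpm6-deficient 1 and 2 lay above all controls and Trpm6-deficient 3 among them, which gave a log2 change of 0.38 (95% interval -0.17 to 0.92). Whether the changes of Mbl1 and Mbl2 differ from each other was not tested. Masp1 and Masp2, the proteases that the lectins carry, had log2 changes of 0.01 (95% interval -0.20 to 0.23) and 0.03 (95% interval -0.18 to 0.23).
Of the classical pathway, C4b was read at 13.04, 12.64, 12.37 and 12.40 in control and at 12.60, 12.19 and 12.02 in Trpm6-deficient livers. The groups overlapped, with control 1 the highest, and the log2 change was -0.34 (standard error 0.21, adjusted p = 0.838 from limma). C4a, its close copy, is outside the listed genes and differed by -0.66 log2 units (standard error 0.22, adjusted p = 0.641). RNA of either gene may bind the probes of the other. C2, the protease that joins C4b in the C3 convertase, had a log2 change of -0.14 (95% interval -0.44 to 0.15). C1ra, a protease of the C1 complex, had one of -0.10 (95% interval -0.38 to 0.18) and has a close copy, C1rb, with which it shares another probe set that was left out.
Of the alternative pathway, Cfb, which encodes factor B and lies beside C2 in the genome, had a log2 change of -0.07 (95% interval -0.39 to 0.25). Cfp, which encodes properdin, the stabilizer of its convertase, is described with the cell type markers. In all, none of the 12 complement genes passed limma's test, 2 were lower at the nominal limit (16.7%) and none higher. Their median log2 change was -0.12, and it was -0.10 without Susd4.
Without Trpm6-deficient 1 this median was -0.22 and 4 complement genes met the nominal limit, all lower: Susd4, C4bp, Mbl1 and C2. In that fit 7.91% of all probe sets met the limit, against 6.87% with all 7 livers. The median difference of the 12 genes from the control mean was 0.01 in Trpm6-deficient 1, -0.21 in Trpm6-deficient 2 and -0.20 in Trpm6-deficient 3. Among 24 other measured genes of early complement and its receptors none passed limma's test, and only C4a met the nominal limit. Clu, Cr1l and C1qa, which encode clusterin, a complement regulator and a chain of C1q, came next with log2 changes of -0.17, 0.26 and -0.31. The median of these 24 genes was -0.03, and 4.17% of them met the nominal limit with all 7 livers, against 6.87% of all probe sets.

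F11 had the largest change among the clotting factors. It encodes factor XI, which thrombin activates to amplify clotting. It was read at 10.47, 10.48, 10.26 and 10.24 in control and at 9.90, 9.38 and 9.61 in Trpm6-deficient livers. All 3 Trpm6-deficient livers lay below the lowest control. The log2 change was -0.73 (standard error 0.14, adjusted p = 0.270 from limma), 1.66-fold lower. The difference was -1.10 in mice of 12 weeks (2 control and 1 Trpm6-deficient) and -0.50 in mice of 13 weeks (2 and 2).
Kininogens are the cofactors that bind factor XI and prekallikrein and release bradykinin. Kng2 was read at 12.69, 12.65, 12.46 and 12.71 in control and at 13.13, 12.99 and 13.13 in Trpm6-deficient livers. All Trpm6-deficient livers lay above all controls, and the log2 change was 0.46 (standard error 0.08, adjusted p = 0.231 from limma), 1.37-fold higher. Kng1, the gene beside it, was read at 13.76, 13.70, 13.64 and 13.71 in control and at 13.84, 13.81 and 13.87 in Trpm6-deficient livers. The groups were apart by less than 0.1. Its log2 change was 0.14 (standard error 0.05, adjusted p = 0.647). The genes are close copies, so probes of each may read RNA of the other. F12, which encodes factor XII, the protease that starts the contact pathway, had a log2 change of 0.01 (95% interval -0.16 to 0.18). Among the 4 measured contact system genes, F11 included, 2 were thus higher and 1 lower at the nominal limit.
F7, which encodes factor VII, the partner of tissue factor that starts clotting, was read at 10.53, 10.63, 10.77 and 10.64 in control and at 10.84, 10.97 and 10.98 in Trpm6-deficient livers. The groups were apart by less than 0.1, and the log2 change was 0.29 (standard error 0.07, adjusted p = 0.439 from limma). F7, F10 and Proz follow each other in the genome. F10, which encodes factor X, had a log2 change of 0.04 (95% interval -0.12 to 0.20), and Proz, which encodes the cofactor protein Z, one of 0.01 (95% interval -0.16 to 0.17).
The other clotting proteases and cofactors made by hepatocytes had groups that overlapped. F2, which encodes prothrombin, was read between 13.26 and 13.50 in control and between 13.28 and 13.53 in Trpm6-deficient livers, with a log2 change of 0.02 (95% interval -0.20 to 0.24). F9, which encodes factor IX, and F5, the cofactor of factor Xa, had log2 changes of -0.01 (95% interval -0.22 to 0.20) and 0.11 (95% interval -0.12 to 0.33). F13b, the carrier subunit of the fibrin crosslinker factor XIII, had one of 0.06 (95% interval -0.10 to 0.22).
The fibrinogen chain genes Fgb and Fgg had log2 changes of -0.05 (95% interval -0.21 to 0.11) and -0.04 (95% interval -0.21 to 0.13). Fga was read at 12.53, 12.17, 11.58 and 12.29 in control and at 12.40, 12.24 and 12.22 in Trpm6-deficient livers. Control 3 was the lowest of all 7, and the log2 change was 0.14 (95% interval -0.38 to 0.67). Without control 3 it was -0.04. Plg, which encodes plasminogen, the precursor of the enzyme that dissolves fibrin, had a log2 change of 0.02 (95% interval -0.10 to 0.14).
Anticoagulants switch off the clotting cofactors or their activators. Pros1, which encodes protein S, the cofactor of activated protein C, was read at 9.47, 9.48, 9.36 and 9.38 in control and at 9.35, 9.20 and 8.95 in Trpm6-deficient livers. Trpm6-deficient 1 lay 0.01 below the lowest control, and the log2 change was -0.26 (standard error 0.10, adjusted p = 0.692 from limma). With 1 liver left out at a time, Pros1 met the nominal limit in 1 of 7 fits. Proc, which encodes protein C, was read between 12.40 and 12.49 in control and at 12.55, 12.18 and 12.19 in Trpm6-deficient livers, with a log2 change of -0.12 (95% interval -0.36 to 0.12). Thbd and Procr, which encode thrombomodulin and the endothelial protein C receptor that present protein C to thrombin, had log2 changes of 0.10 (95% interval -0.13 to 0.32) and 0.02 (95% interval -0.21 to 0.24).
Of the 7 genes whose products need vitamin K for their calcium-binding residues, 1 was higher (F7) and 1 lower (Pros1) at the nominal limit, with a median log2 change of 0.01. In all, none of the 21 genes of this group passed limma's test, and at the nominal limit 3 were higher and 2 lower (23.8%). Their median log2 change was 0.02.

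**Figure D3:**
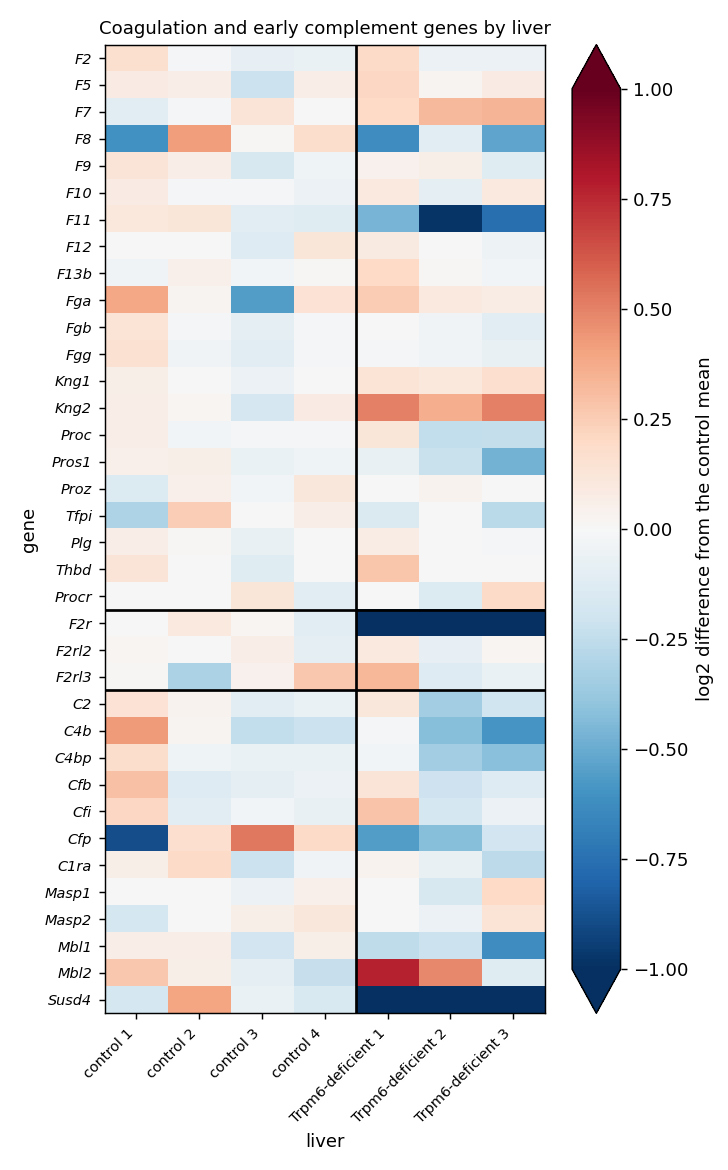
Log2 difference from the control mean for each of the 36 genes (rows, by role) in each liver (columns), with colours saturating at 1 log2 unit either way. F2r and Susd4 are below the controls in all 3 Trpm6-deficient livers, and F11 is deepest in Trpm6-deficient 2. Cfp and F8 are low in control 1 and below the control mean in all 3 Trpm6-deficient livers, F8 least so in Trpm6-deficient 2.

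Genes of haemostasis outside the listed set were counted in the same fit. Of 23 measured genes, among them antithrombin, heparin cofactor, tissue factor and von Willebrand factor genes, none passed limma's test, and 2 met the nominal limit, both higher. These were Hrg, which encodes histidine-rich glycoprotein, at a log2 change of 0.23 (standard error 0.07) and Thbs1, which encodes thrombospondin, at 0.60 (standard error 0.22). Serpina10, which encodes the protein Z-dependent inhibitor of factor Xa, had one of -0.26 (standard error 0.12). The median was 0.04, and 8.7% of the 23 genes met the nominal limit, against 6.87% of all probe sets.
Of 7 genes that carboxylate, cut or export clotting factors, none passed, and Mcfd2 and Pcsk6 met the nominal limit, at 0.19 and 0.16. They are 28.6% of the 7, against 6.87% of all probe sets. Mcfd2 encodes a cargo receptor subunit for factors V and VIII and Pcsk6 a proprotein convertase. Ggcx, which encodes the vitamin K-dependent carboxylase, had a log2 change of 0.21 (standard error 0.13), and the median was 0.02.
Fibrinogen and several complement genes belong to the acute phase response, in which inflammation changes liver secretion. Of 20 other acute phase genes and regulators none passed limma's test, and 3 higher and 3 lower genes met the nominal limit. Lcn2, which encodes lipocalin 2, differed by 1.93 log2 units (standard error 0.43, adjusted p = 0.389) and Saa4, a constitutive serum amyloid gene, by -0.62 (standard error 0.13, adjusted p = 0.369). Il6st, which encodes the signalling chain of the interleukin 6 receptor, and Cebpa, a C/EBP factor gene, had changes of -0.30 and -0.42. The other 2 genes at that limit, named after their values were seen, were Orm2, an orosomucoid gene, at 1.54 (standard error 0.63) and Apcs, which encodes serum amyloid P, at 0.50 (standard error 0.19). Orm2 was read between 8.93 and 9.35 in control and at 10.33, 9.44 and 12.32 in Trpm6-deficient livers, with Trpm6-deficient 3 far above the rest. The median of the 20 changes was -0.02. The mean of the 20 genes differed from the control mean by 0.29, -0.07, -0.03 and -0.20 in control 1, 2, 3 and 4. In Trpm6-deficient 1, 2 and 3 it differed by 0.13, -0.20 and 0.19. The part of this spread in the values of the complement genes was not tested.

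F8, Cfp and Tfpi are set beside markers of non-parenchymal cells, F8 and Tfpi having been chosen after their values were seen. F8, which encodes the clotting cofactor factor VIII, was read at 8.60, 9.62, 9.22 and 9.38 in control and at 8.58, 9.09 and 8.68 in Trpm6-deficient livers. Cfp was read at 8.67, 9.72, 10.08 and 9.75 in control and at 9.0, 9.13 and 9.36 in Trpm6-deficient livers. Tfpi, which encodes the endothelial inhibitor of tissue factor, was read at 7.08, 7.63, 7.39 and 7.45 in control and at 7.24, 7.39 and 7.12 in Trpm6-deficient livers. Control 1 was the lowest control for all 3 genes. The log2 changes were -0.42 for F8, -0.39 for Cfp and -0.14 for Tfpi (standard errors 0.26, 0.33 and 0.14), none of which met the nominal limit. Without control 1 they were -0.62, -0.69 and -0.24 (adjusted p = 0.645, 0.50 and 0.797 from limma), with F8 and Cfp then at an unadjusted p of 0.0136 and 0.00375. Over the 7 fits with 1 liver left out, F8 lay between -0.62 and -0.28 and Cfp between -0.69 and -0.22. Each met the nominal limit in 1 of those 7 fits, and Tfpi in 0.
The mean of 10 sinusoidal endothelial markers differed from the control mean by -0.66, 0.39, 0.09 and 0.18 in control 1, 2, 3 and 4 and by -0.42, 0.09 and -0.23 in Trpm6-deficient 1, 2 and 3. The mean of 9 Kupffer cell markers differed by -0.64, 0.24, 0.29 and 0.11 in the controls and by -0.36, -0.27 and -0.21 in the Trpm6-deficient livers. The mean of 9 hepatocyte markers stayed within -0.08 and 0.09 in all 7 livers. None of these 28 markers passed limma's test or met an unadjusted p of 0.05. All 10 endothelial and 8 of 9 Kupffer cell markers had log2 changes below 0 (medians -0.18 and -0.30). Of the 9 hepatocyte markers 4 were below 0 (median 0.01). Of the 7 platelet and 7 neutrophil and monocyte markers measured, none met the nominal limit. Krt19 of 6 cholangiocyte markers was higher at that limit (0.33), Fabp4 of 7 adipocyte markers lower (-0.42) and Alas2 of 5 red cell precursor markers lower (-1.66, adjusted p = 0.192 from limma). The part of cell composition in the values of F8, Cfp and Tfpi was not tested.

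**Figure D4:**
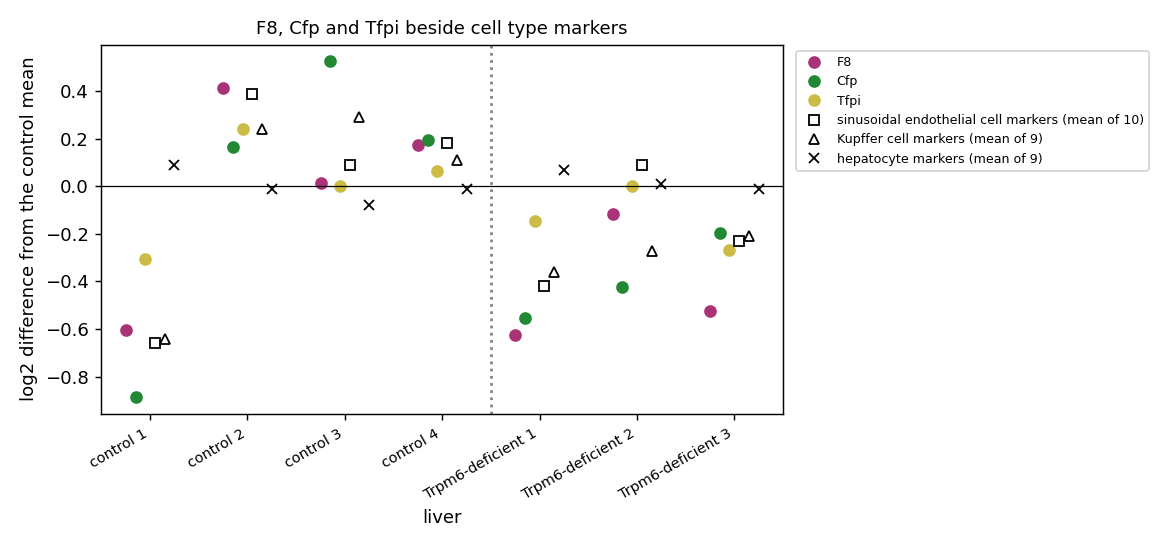
Log2 difference from the control mean of F8, Cfp and Tfpi (filled points) and of the mean of 3 marker lists (open symbols and crosses) in each liver. Control 1 is low for all 3 genes and for the endothelial (-0.66) and Kupffer cell (-0.64) markers, while hepatocyte markers stay between -0.08 and 0.09.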

How the data were processed

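Total liver RNA of 7 mice was labelled and hybridised to an Affymetrix whole-transcript array, 1 array per mouse. The authors ran RMA, which covers background correction, normalization and summary of probes, in Affymetrix Expression Console 1.4.0 (submitters' processing notes), and deposited log2 values with 2 decimals for 35556 probe sets. These were used as deposited. Gene names came from the platform annotation: 21789 probe sets have 1 symbol, 1621 have several and 12146 have none. Genes were named from probe sets with 1 symbol, in all 36 of the 40 listed.
The groups were compared with limma 3.58.1 in R 4.3.3 (lmFit and eBayes, two-sided, no covariate, 7 arrays), and p-values were adjusted by Benjamini and Hochberg over all probe sets, with 0.1 as the threshold. The fit was checked on simulated data. Genes given with every liver's value are those meeting the nominal limit (unadjusted p up to 0.05) and the largest change in each role. F8 and Tfpi were added to these after their values were seen. So were C4bp and Proc, which are given with the control range and each Trpm6-deficient value. Genes and lists were chosen with earlier results of these data known. The labels do not name separate litters, so p-values measure the spread between these 7 mice, whose number limits the precision. Alternatives were leaving out each liver, age as a covariate, the replicate number as a block, filters, other scalings and the mean of a gene's probe sets.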

Additional observations from a re-analysis of the deposited data

Results flagged for a closer look

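Among the 4 control livers, 5 of the 36 genes had a liver far from the other controls, where chance flags about 1 in 20 groups of this size. The genes were read in the same 4 livers and are not separate trials, so the count of 5 cannot be read against that rate. All 5 flags fell in control 1 or control 3. The gap to the nearest control, as a share of the range of the controls, was 0.933 for F5 (control 3 at 11.88, the others at 12.16 to 12.18) and 0.962 for Mbl1 (control 3 at 11.16, the others at 11.41 to 11.42). It was 0.889 for Proc (control 1 at 12.49, the others at 12.40 to 12.41), 0.917 for C4bp (control 1 at 12.69, the others at 12.45 to 12.47) and 0.833 for Cfb (control 1 at 12.87, the others at 12.45 to 12.52). The group of 3 Trpm6-deficient livers was too small for this comparison.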

How the results depend on the processing

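For the 12 genes given in full by rule, 170 of 180 refits kept the direction and the side of the threshold, from which most of these genes lie far. Of the 8 genes at the nominal limit, F2r, Susd4, F11, Kng2 and F7 met it in 15 of 15 refits, Kng1 in 12, Mbl1 in 11 and Pros1 in 8. The exceptions were F2r and Susd4, described above, and Fga, which was -0.04 without control 3 and 0.27 without control 1. With the replicate number as a block, F2r had a log2 change of -1.28 (adjusted p = 0.388), so that 0 of 3 thrombin receptor genes passed, and 4 of 12 complement genes met the nominal limit, as did 9.27% of all probe sets (6.87% without the block). The calls over all probe sets went from 46 to 1. Control 4 has no same-numbered Trpm6-deficient liver and adds nothing to the difference in that fit. Fewer values then remain to measure the spread. The standard error of F2r was 0.09 with the block and 0.10 without. Same-numbered livers deviated together with correlations of 0.335, 0.26 and 0.088 over all probe sets, and 6 of 6 livers correlated best with their own number, but no label says that a number marks a litter or day. These 6 comparisons reuse the same livers and are not separate. Control 1 and Trpm6-deficient 1 also differ in age, at 12 and 13 weeks. With quantile normalization Susd4 passed (log2 change -2.02, adjusted p = 0.0999), so that 1 of 12 complement genes was called, as it was with both filters on probe sets. When 1 liver was left out, the genes called were 0 of 21 for coagulation, 0 to 1 of 3 for thrombin receptors and 0 to 1 of 12 for complement. Those meeting the nominal limit were 3 to 6, 1 and 1 to 4, and the median log2 changes were -0.01 to 0.04, -0.10 to 0.06 and -0.22 to -0.08. The lowest coagulation count of 3 was without Trpm6-deficient 3, and the lowest complement count of 1 was without control 2 and without control 4. With age as a covariate the log2 change of F2r was -1.22 (adjusted p = 0.0720). In the fit with all 7 livers and no covariate F2r was also called at a threshold of 0.05. Calls over all probe sets were 8 with age as a covariate, 68 and 70 with the filters, and 7 to 69 with 1 liver left out. Of all 36 genes over 15 refits each, 49 of 540 changes came to 0 or crossed it, and the cause was not tested.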
